A study of Mus musculus with 2 samples.

Results

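The cells described here are the Cxcr5-positive cells among single CD4 T cells that recognise the model peptide 2W1S. A cell was counted as Cxcr5-positive when its deposited log2 value of Cxcr5 was 1 or above, and as Cxcr5-low when it was below 1. By that rule 60 of 178 cells were positive and the other 118 were low. The cells came from C57BL/6 mice colonized with a recombinant Candida albicans that carries the 2W1S antigen, and were sorted by FACS from the spleen and peripheral lymph nodes. They were captured in March (82 cells) and April (96 cells) on the Fluidigm C1 instrument, a microfluidic device that isolates single cells, and their cDNA was made with the SMART-Seq v4 kit, which copies whole transcripts. All cells share the colonization. No uncolonized mice and no cells of another specificity were analysed here, and the labels used here do not state the number, age or sex of the mice or the time since colonization.

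Follicular helper T cells are CD4 T cells that help B cells make antibody in germinal centres. CXCR5 is the receptor for CXCL13, the chemokine made in B cell follicles, and it draws T cells toward them. The transcription repressor BCL6 drives the programme, PD-1, ICOS and BTLA tune contacts with B cells, the adaptor SAP carries signals from SLAM family receptors, and the cells deliver IL-21, IL-4 and CD40 ligand. KLF2, in contrast, maintains the genes of recirculating T cells, among them S1PR1, and opposes the follicular programme.

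Cxcr5 chose the cells, so its values describe the split and are not a result. In March 20 of 82 cells were positive, 24.4% (95% exact Clopper-Pearson interval 15.6 to 35.1), and in April 40 of 96 were, 41.7% (31.7 to 52.2). All intervals on shares of cells cover counting error only. The cell names give 2 runs in each month. The positive cells numbered 8 of 25 in Mar1, 12 of 57 in Mar17, 22 of 48 in Apr13 and 18 of 48 in Apr21, so every run held both classes.

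Within the positive cells, Cxcr5 ran from 1.10 to 10.71 in March (median 5.58) and from 1.01 to 10.80 in April (median 4.13). Of the 60 cells, 14 lay between 1 and 2, 17 between 2 and 5, and 29 at 5 or above. All but 1 of the 14 cells nearest the threshold were April cells. The values just inside the threshold were 1.01, 1.04 and 1.06, and those just outside were 0.99, 0.99 and 0.84. Among the low cells, Cxcr5 was at 0 in 35 of the March cells and 22 of the April cells, and 19 low cells held between 0.5 and 1. The class is therefore a range of a continuous value with a thin middle, and its lower edge is set mostly by April cells.

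**Figure D1:**
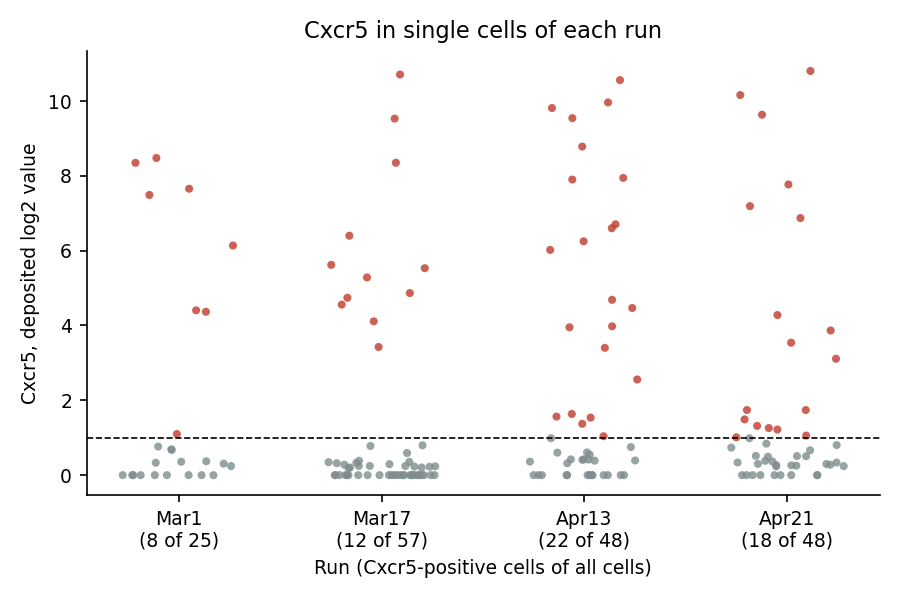
Deposited log2 value of Cxcr5 (vertical axis) in each of the 178 cells, one point per cell, by run (horizontal axis); the line marks the threshold of 1. Positive cells spread up to 10.80, and most low cells sit at or just above 0.

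The classes had similar medians of genes detected and mitochondrial share, but not the same extremes. The median number of genes detected was 5382 in positive and 5320 in low March cells, and 5012 and 4897 in April, a small excess in the positive class both times. The lowest number was 4655 in positive and 2927 in low March cells, and 4305 and 4005 in April. The median mitochondrial share of the linear signal was 7.43% in positive and 7.25% in low March cells, and 8.58% and 8.40% in April. This share exceeded 50% in 3 cells, and all 3 were Cxcr5-low cells of the Mar1 run. Transcripts of the T cell receptor complex were present throughout: Cd3d and Cd3g reached a linear value of 1 in 100% of the cells in each class and capture. Cd4 did so in 90% of positive and 66.1% of low cells in March, and in 77.5% and 64.3% in April.

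For each of the 10794 genes detected in at least 10% of cells, the deposited log2 values were averaged over the cells of each class in each capture, zeros included. The 4 resulting means were compared with limma, with the capture as a block and Benjamini-Hochberg adjustment over all genes. A difference below is therefore a difference of mean log2 values, positive minus low, given with its SE; it mixes how many cells hold a transcript with how much they hold, and is not a fold change. The captures are the 2 replicates. Nothing says which mice went into each, so the spread between them may be technical. A p-value here weighs a difference against how far the captures disagree across genes of similar level. It does not measure how far they disagree on the gene itself. Under this test 4 genes were higher in Cxcr5-positive cells, 0.0371% of those tested, and none was lower (0%), while 787 genes had an unadjusted limma p below 0.05. The 4 were Ctsb, P4hb, S100a11 and Traj23, and no follicular marker was among them.

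The most even of the 4 was Ctsb, which encodes the lysosomal cysteine protease cathepsin B (chr14:63122462-63145923, mm10). Its mean log2 value was 5.76 in positive and 2.96 in low cells in March, and 5.88 and 3.55 in April. Both positive means lay above both low means, and how many of all genes did so was not counted. Ctsb rose by 2.56 ± 0.56 (95% interval 1.46 to 3.67, limma adjusted p = 0.027), with differences of 3.27 in Mar1, 2.52 in Mar17, 2.94 in Apr13 and 1.74 in Apr21. Among all genes tested, 9.11% were higher in positive cells of all 4 runs and 4.5% lower. More positive cells held it: 15 of 20 against 28 of 62 in March and 31 of 40 against 30 of 56 in April reached a linear value of 1.

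P4hb encodes protein disulfide isomerase, which forms disulfide bonds in the endoplasmic reticulum (chr11:120560298-120573253). Its means were 3.93 in positive and 1.24 in low cells in March, and 3.16 and 1.54 in April. It rose by 2.16 ± 0.47 (limma adjusted p = 0.027), and was higher in each of the 4 runs, from 0.67 in Apr21 to 3.66 in Mar1.

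S100a11, a calcium-binding protein of activated and migrating cells (chr3:93520488-93526287), passed the same test with an uneven pattern. Its means were 7.64 and 3.17 in March but 7.12 and 6.64 in April. The April difference of 0.48 was made of -0.04 in Apr13 and 1.06 in Apr21. limma gave it 2.47 ± 0.56 (adjusted p = 0.027), an SE that does not reflect this spread, because the fit gave each gene the variance shared by genes of its expression level. S100a11 was thus a March difference that the model carried past the threshold.

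These calls were not stable. None of the 4 genes passed in a fit without the Mar1 cells, without the capture block, with runs as blocks, without the shared variance trend, with the number of genes detected per cell taken into account, or without cells in which Foxp3 was detected. In those fits the lowest adjusted p over all genes ran from 0.0986 to 0.995, and all 4 genes kept their sign.

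The fourth called gene, Traj23, is a joining segment of the T cell receptor alpha chain. Joining segments are picked by rearrangement, so a cell carries a segment as part of its own receptor and the level across cells mostly reflects how many cells picked it. The reference sequences (GENCODE vM21, mm10, plus strand) of Traj23 and of the beta segments with the largest differences in each direction are shown because the differences rest on such short stretches; capitals mark the match to the codons TTN, GGN, NNN and GGN in a row, the phenylalanine-glycine-X-glycine motif shared by joining segments.
Traj23, chr14:54196081-54196140: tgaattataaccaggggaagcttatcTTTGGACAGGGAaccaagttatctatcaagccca
Trbj2-3, chr6:41543223-41543271: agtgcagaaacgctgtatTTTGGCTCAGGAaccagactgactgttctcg
Trbj1-4, chr6:41534811-41534861: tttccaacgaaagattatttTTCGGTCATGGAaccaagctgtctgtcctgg
On the transcribed strand the motif was present in 57 of 70 annotated joining segments (81.4%), and on the opposite strand in 0. The segments are 60, 49 and 51 bases long, and a value per length turns few reads on such a segment into a high level.

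Traj23 had mean log2 values of 4.65 in positive and 1.63 in low cells in March, and 2.66 and 1.44 in April, and rose by 2.12 ± 0.48 (limma adjusted p = 0.027). Counted in cells, it was held by 8 of 20 positive (40%) and 9 of 62 low cells (14.5%) in March, and by 9 of 40 (22.5%) and 8 of 56 (14.3%) in April. By run it was held by 4 of 8 against 1 of 17 cells in Mar1, 4 of 12 against 8 of 45 in Mar17, 4 of 22 against 4 of 26 in Apr13, and 5 of 18 against 4 of 30 in Apr21. The difference of means was 5.47 in Mar1 and 1.71, 0.71 and 1.81 in the other runs, so it was positive in all 4 and largest in Mar1.

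Trbj2-3 was held by 8 of 20 positive and 7 of 62 low March cells, and by 5 of 40 and 5 of 56 April cells. Its difference of 1.71 ± 0.43 did not pass (limma adjusted p = 0.135). The difference lay mostly in 1 run, at 4.78 in Mar17 against 0.42 in Mar1, 0.09 in Apr13 and 0.47 in Apr21. In Mar17, 7 of 12 positive and 5 of 45 low cells held it. Traj23 and Trbj2-3 occurred together in 4 of 60 positive and 2 of 118 low cells. How often they would meet independently was not computed, so no shared receptor is read from these counts. In the opposite direction, Trbj1-4 was held by 2 of 20 and 10 of 62 cells in March and by 2 of 40 and 8 of 56 in April. By run, Trbj1-4 was held by 0 of 8 and 3 of 17 cells in Mar1 and by 0 of 22 and 7 of 26 in Apr13. In Mar17 the shares were alike, at 2 of 12 and 7 of 45, and in Apr21 the order turned, at 2 of 18 and 1 of 30. It is singled out after its values were seen, and its difference of -1.09 did not pass. Of 39 alpha joining segments measured, 7 were detected in enough cells to be tested. Of these 7, 6 (85.7%) were higher in positive cells in both captures and none lower, but only Traj23 was higher in all 4 runs. Of the 11 beta segments tested, 3 (27.3%) were higher and 2 (18.2%) lower in both captures. All genes tested gave 32.8% higher and 18.7% lower.

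Of the 32 follicular, naive and regulatory markers set for the comparison, 31 were tested; 12 were higher in positive cells in both captures, 8 were lower in both and 11 had opposite signs, where 32.8% of all genes tested were higher in both and 18.7% lower. Higher genes were thus 63.6% of those with 1 sign, a split that another scaling of the cells, quantile normalization, moved to 45.3%. None passed limma, the lowest adjusted p being 0.399, so the values below describe the captures and are not calls. Among surface receptors the clearest was Pdcd1, which encodes PD-1. Its mean log2 value was 1.47 in positive and 0.54 in low cells in March, and 1.99 and 0.61 in April. The difference of 1.16 ± 0.37 had an interval of 0.44 to 1.88 (limma adjusted p = 0.399).

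Read as cells, Pdcd1 reached a linear value of 1 in 6 of 20 positive March cells (30%, interval 11.9 to 54.3) and 3 of 62 low cells (4.84%, 1.01 to 13.5). In April it did so in 13 of 40 (32.5%, 18.6 to 49.1) and 6 of 56 (10.7%, 4.03 to 21.9). Most Cxcr5-positive cells thus had no Pdcd1 at that level, which a method that misses transcripts in single cells does not separate from absence.

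Btla, an inhibitory receptor that binds HVEM, had means of 2.99 and 1.75 in March and 3.16 and 2.00 in April, a difference of 1.20 ± 0.47 (limma adjusted p = 0.514). It was higher in 3 of the 4 runs and level in Apr21 (-0.04). Tox, a nuclear factor of follicular helper and chronically stimulated T cells, was as even, with 3.51 and 1.99 in March and 3.82 and 2.49 in April, and it was higher in all 4 runs (0.80 to 1.92). Its difference of 1.42 ± 0.50 had a limma adjusted p of 0.422.

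Icos, the costimulatory receptor needed to hold cells in the follicle, went opposite ways. Its means were 6.15 and 3.88 in March but 5.99 and 6.39 in April. Sh2d1a, which encodes SAP, had 4.75 and 3.19 in March and 5.35 and 5.01 in April, and its sign differed between the runs of each month (-0.17 in Mar1, 2.70 in Mar17, -1.75 in Apr13, 2.48 in Apr21). Of the markers that named this class, Pdcd1 and Btla were thus higher in positive cells of both captures, and Sh2d1a was not steady within a capture. The cells are called Cxcr5-positive here rather than follicular helper cells.

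**Figure D2:**
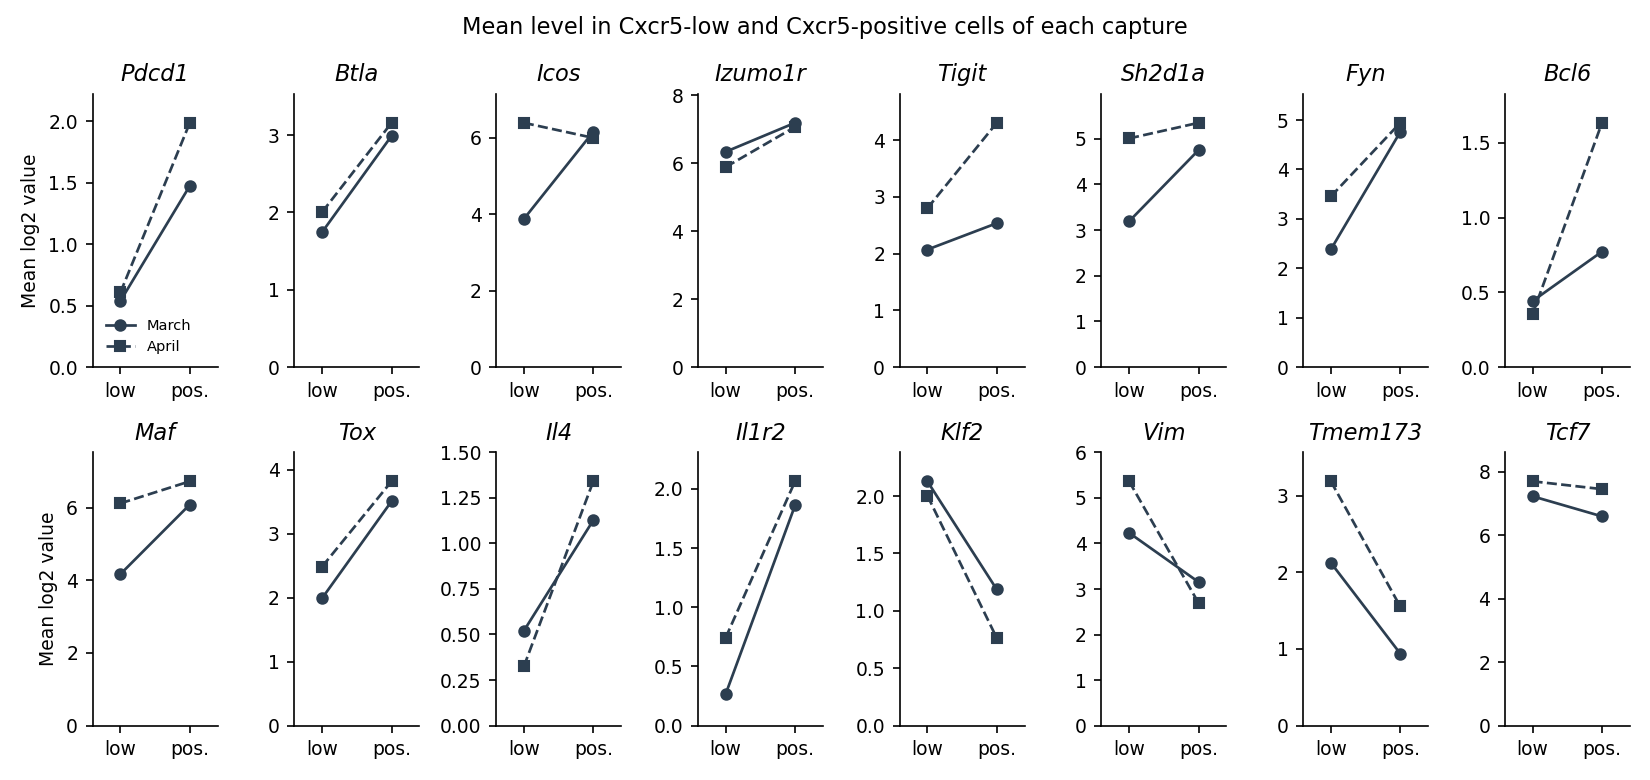
Mean deposited log2 value (vertical axes, each from 0) of 16 genes in Cxcr5-low and Cxcr5-positive (pos.) cells; circles with solid lines are March, squares with dashed lines April. Pdcd1, Btla, Fyn, Tox and Il1r2 go up and Klf2, Vim, Tmem173 and Tcf7 down from low to positive in both captures, while Icos goes up in March (3.88 to 6.15) and not in April (6.39 to 5.99); none of these 16 passed the test.

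The whole list of follicular surface receptors and costimulators leaned toward positive cells. Of its 17 tested members, Cxcr5 not counted, 12 (70.6%) were higher in both captures and 1 lower, where all genes gave 32.8% and 18.7%; its median difference was 0.88 against 0.08 over all genes, and none was called. Without the Mar1 cells its median was 0.47. Tigit, an inhibitory receptor, had 2.54 and 2.07 in March and 4.30 and 2.80 in April. Izumo1r, the folate receptor 4 of follicular helper and regulatory cells, had 7.19 and 6.34, then 7.07 and 5.89. Cxcr4, which places cells in the germinal centre dark zone, differed by 1.08 in March and 0.98 in April. Its runs were uneven, at -0.71 in Mar1, 2.21 in Mar17, 0.15 in Apr13 and 1.80 in Apr21. Tnfrsf4 (OX40) differed by 2.32 in March and 0.16 in April and Cd200 by 0.91 and 0.39, and both were higher in all 4 runs.

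The list of SLAM family receptors and SAP signalling was led by Fyn, the Src family kinase that SAP recruits. Its means were 4.76 and 2.38 in March and 4.94 and 3.45 in April, higher in each run, with a difference of 1.93 ± 0.54 (limma adjusted p = 0.231). The receptors themselves were uneven: Slamf6 differed by 0.92 in March and -0.11 in April, and Slamf1 by 0.01 and 0.90. Of 8 members, 4 were higher in both captures and none lower, with a median of 0.43 that fell to -0.03 without the Mar1 cells.

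Among transcription regulators, Bcl6 was scarce. Its mean was 0.77 in positive and 0.44 in low March cells, and 1.63 and 0.36 in April, with -0.28 in Mar17 against 1.36, 1.78 and 0.78 in Mar1, Apr13 and Apr21. In cells it reached a linear value of 1 in 3 of 20 and 7 of 62 in March, and in 13 of 40 and 4 of 56 in April. The difference was positive in 3 of the 4 runs. Maf, which drives IL-21 and IL-4, had 6.08 and 4.17 in March and 6.72 and 6.11 in April (difference 1.26 ± 0.57, limma adjusted p = 0.581).

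Hif1a, the oxygen-sensing factor, differed by 1.80 and 0.86, and Tox2 by 0.86 and 0.10. Tcf7 and Lef1, which hold T cells in a stem-like state and also act early in follicular helper cells, had differences of -0.63 and -0.25 (Tcf7) and -0.50 and -0.14 (Lef1). Their signs turned within each month: Tcf7 was at 0.38 in Mar1 and 0.41 in Apr13 but -0.87 in Mar17 and -0.92 in Apr21, and Lef1 was at 0.37 and 0.41 against -0.66 and -0.68. Over the 17 regulators 8 were higher in both and 2 lower, with a median of 0.29. Ascl2 and Prdm1 were not analysed here.

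Follicular cytokines were thinly covered, with 3 of 8 listed genes tested, and all 3 were higher in both captures (median 0.59, and 0.22 without the Mar1 cells). Il4 had means of 1.13 and 0.52 in March and 1.34 and 0.33 in April, and was higher in each of the 4 runs (difference 0.81 ± 0.32, limma adjusted p = 0.503). Il21 differed by 0.64 and 0.05, and the secreted angiopoietin-like protein gene Angptl2 by 0.68 and 0.50. Cd40lg, the ligand with which helper cells license B cells, went opposite ways (1.44 and -0.78).

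Receptors for interleukin 1 were higher in positive cells of both captures. Il1r2 encodes the decoy receptor, which binds IL-1 without signalling, and Il1r1 the signalling receptor. Il1r2 had means of 1.86 and 0.27 in March and 2.06 and 0.74 in April, a difference of 1.46 ± 0.38 (interval 0.72 to 2.20, limma adjusted p = 0.135), from 0.95 to 1.76 in the 4 runs. It was held by 4 of 20 and 4 of 62 March cells and by 17 of 40 and 16 of 56 April cells. Il1r1 differed by 0.75 and 1.28.

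Klf2, the regulator of recirculation, had means of 1.19 in positive and 2.13 in low cells in March, and 0.76 and 2.00 in April. Klf2 was lower in each run (-2.37 in Mar1, -0.39 in Mar17, -1.33 in Apr13, -1.14 in Apr21). The difference of -1.09 ± 0.40 had an interval of -1.88 to -0.30 and did not pass (limma adjusted p = 0.445). It was held by 5 of 20 and 22 of 62 cells in March and by 6 of 40 and 20 of 56 in April.

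Ccr7, which keeps T cells in the T zone, differed by -0.99 and -0.03, the IL-7 receptor gene Il7r by -0.71 and -0.26, and the egress receptor gene S1pr1 by -0.06 and -0.38. None of these signs held in all runs: S1pr1 was at 1.02 in Mar1, and Ccr7 and Il7r were at 0.64 and 0.94 in Apr21. Of the 17 naive and central memory genes tested, 8 (47.1%, against 18.7% of all genes) were lower in both captures and 3 higher; the median was -0.63 in March and 0.06 in April. In the list of genes that follicular helper cells hold low, 7 of 16 were lower in both and 3 higher.

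The markers were also counted in each cell. Of Pdcd1, Sh2d1a, Btla, Icos, Bcl6 and Izumo1r, 4 or more reached a linear value of 1 in 12 of 20 positive March cells (60%, interval 36.1 to 80.9) and in 16 of 62 low cells (25.8%, 15.5 to 38.5). In April they did so in 23 of 40 (57.5%, 40.9 to 73.0) and 14 of 56 (25%, 14.4 to 38.4). The captures gave nearly the same pair of shares. The median cell held 4 of the 6 genes in both positive classes and 3 in both low classes. Cells with 5 or 6 of them numbered 3 positive and 0 low in March, and 12 positive and 2 low in April.

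Pairs of markers were also counted within cells. Sh2d1a alone was held by 15 of 20 positive and 39 of 62 low cells in March, and by 33 of 40 and 44 of 56 in April. Other genes of like frequency were not counted for comparison, either as pairs or as sets of 6. Pdcd1 and Sh2d1a were held together by 6 of 20 positive and 0 of 62 low March cells, and by 11 of 40 and 4 of 56 April cells; Pdcd1 and Btla by 3 and 1, then 8 and 2. Pdcd1 with Bcl6 was not steady, with 0 positive and 2 low cells in March and 6 and 1 in April.

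**Figure D3:**
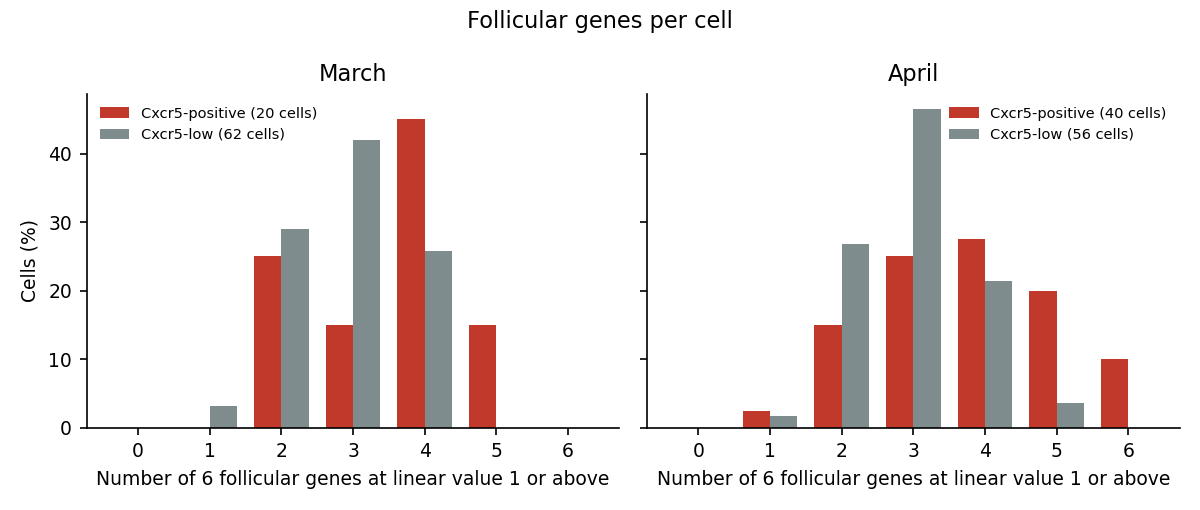
Percentage of cells (vertical axis) that held each number of 6 follicular genes at a linear value of 1 or above (horizontal axis), for Cxcr5-positive and Cxcr5-low cells, March and April in separate panels. Positive cells centre on 4 genes and low cells on 3 in both panels.

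The markers did not all follow the Cxcr5 level in the same way when cells of both captures were ordered by it. Cells with Cxcr5 at 0 (57 cells) and those above 0 but below 1 (61 cells) held a mean of 2.91 and 2.97 of the 6 genes, and Pdcd1 in 7.02% and 8.20%. Single genes differed between these low ranges: Bcl6 was held by 14% and 4.92%, Sh2d1a by 64.9% and 75.4%, and the mean log2 value of Izumo1r was 5.34 and 6.86. Above the threshold the mean was 3.50 at 1 to 2 (14 cells), 3.35 at 2 to 5 (17 cells) and 3.97 at 5 or above (29 cells). Pdcd1 was held by 42.9%, 17.6% and 34.5% of these cells, without order.

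Btla was most frequent in the highest cells, held by 35.7%, 29.4% and 55.2% across the positive ranges against 33.3% of cells at 0 and 32.8% just above it, and by 58.3% in March and 52.9% in April at 5 or above. Bcl6 was held by 14.3%, 23.5% and 34.5% across the positive ranges, but the last share joined 8.33% in March to 52.9% in April. In March 17.1% of cells at 0 held it, so the captures did not share an order. The mean log2 value of Klf2 was 2.16 at 0 and 1.99 just above it, and 0.28, 0.95 and 1.18 in the positive ranges. The captures did not share this order either. In March it was 1.67 just above 0, 1.99 at 2 to 5 and 0.82 at 5 or above, and in April 2.24, 0.23 and 1.43. Months contribute unequally to these ranges, 13 of the 14 cells at 1 to 2 being from April.

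By size alone, 76 genes (0.704% of those tested) were at least 1 higher in positive cells in both captures and 5 (0.0463%) at least 1 lower. The higher set held Ctsb, P4hb and Traj23, and also Fyn, Tox, Btla and Zap70. Zap70, the kinase recruited to the T cell receptor, had means of 4.51 and 2.92 in March and 3.44 and 2.09 in April, and differed by 1.42 to 1.49 in the 4 runs. Outside the set because of April lay Ptpn22, a phosphatase that restrains receptor signalling (3.53 and 0.72), Cd3d (1.57 and 0.98) and the adaptor gene Lat (1.23 and 0.97). In the T cell identity list 9 of 14 were higher in both and 1 lower (median 0.60, and 0.35 without the Mar1 cells), none called.

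Other genes near the top of the ranking were Slc9a9, an endosomal sodium-proton exchanger (3.25 and 1.15 in March, 3.88 and 2.21 in April), and Scap, the escort of the SREBP lipid regulators (1.63 and 0.23, 1.72 and 0.42). Bcl2a1b, a survival factor of the BCL2 family, had 4.49 and 1.86, then 4.85 and 3.34, and is uncertain because near-identical copies share its reads. Each had a limma adjusted p of 0.135. The receptor beta constant segment Trbc2 differed by 1.64 and 0.29, and Bola2, an iron-sulfur protein, by 3.32 and 0.35, a March difference in the main.

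**Figure D4:**
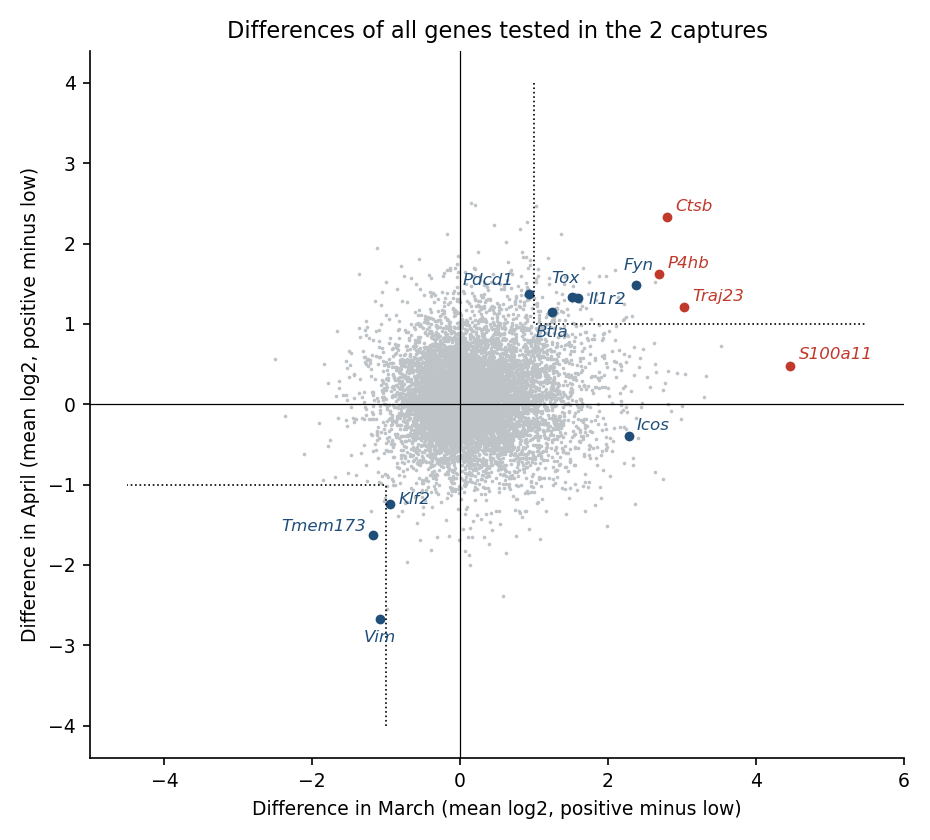
Difference of mean log2 values (positive minus low) of each of the 10794 genes tested, March on the horizontal and April on the vertical axis; red points passed limma, blue points are other named genes and the dotted lines mark 1 and -1 in both captures. Ctsb lies far out on both axes (2.80 and 2.33), S100a11 on the March axis (4.46 against 0.48).

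The 5 genes at least 1 lower in both captures were Vim, Tmem173, Srp14, Ripor2 and Trbj1-4; Srp14, Ripor2 and Trbj1-4 are named after their values were seen. Vim, the intermediate filament vimentin, had means of 3.15 and 4.23 in March and 2.69 and 5.36 in April (-1.87 ± 0.54, limma adjusted p = 0.321), but 0.25 in Mar17. Tmem173, which encodes the DNA-sensing adaptor STING, had 0.94 and 2.12, then 1.55 and 3.19, and was lower in all 4 runs (-1.41 ± 0.43, limma adjusted p = 0.399). Srp14, a subunit of the signal recognition particle, differed by -1.20 and -1.33, and Ripor2 by -1.03 and -1.20. The integrin chain gene Itgb1 lay close, at -1.07 and -0.98.

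Metabolic and proliferation genes gave unequal medians in the captures. Of 22 nuclear genes of oxidative phosphorylation, 9 were higher in both and 1 lower, with a median of 0.85 in March and 0.00 in April. Glycolysis gave 9 and 1 of 15 with medians of 0.70 and 0.20; Gapdh differed by 1.33 and 1.26 and Aldoa by 0.95 and 1.73. Of 25 cell cycle genes, 11 were higher and 4 lower in both, with medians of 0.47 and -0.20, and the replication helicase gene Mcm6 differed by 0.88 and 1.36. With the number of genes detected per cell taken into account the 3 medians, over both captures, went from 0.48, 0.25 and 0.25 to 0.18, 0.09 and -0.08.

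Regulatory cells can also carry CXCR5. Foxp3, their defining factor, was detected in 2 of 20 positive (10%) and 15 of 62 low cells (24.2%) in March and in 2 of 40 (5%) and 4 of 56 (7.14%) in April, and differed by -0.24 and -0.14. Ikzf2, which encodes Helios, differed by 1.07 and 0.39 and Il2ra by 0.14 and 0.21. Of 14 listed regulatory genes, 6 (42.9%) were higher in both captures and 2 (14.3%) lower, where all genes gave 32.8% and 18.7%. Their median was 0.04, and none was called. In all 4 runs 4 of the 14 were higher and none lower, where 9.11% of all genes were higher. Il1r2, Izumo1r and Tnfrsf4, described above, also belong to this list. Of 20 immediate early and receptor response genes, 3 (15%) were higher in both captures and 5 (25%) lower, where all genes gave 32.8% and 18.7%. Their median difference was -0.09. In all 4 runs 3 of them were lower and none higher, where 4.5% of all genes were lower. The 3 were Dusp2, Cd6 and Nr4a1, and not every run showed a clear difference. Cd6 was at -0.004 in Apr13, and Nr4a1 at -0.02 in Mar1 and -0.05 in Apr21. Nr4a1 differed by -0.46 and -0.43. The lists of Th1, Th2, Th17 and interferon response genes had medians of 0.07, -0.12, 0.15 and -0.08, the Th17 list, which holds Il1r1, with 0.60 in March and 0.11 in April, and none of their members was called.

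Transcripts of B cells, which CXCR5 also marks, were present in both classes. Of 20 listed B cell genes, 10 were measured. Their summed linear level had a median of 41.6 in positive cells (3.21 to 1430) and 9.70 in low cells (0.283 to 50459) in March, and of 22.9 (1.49 to 2745) and 12.2 (1.60 to 4869) in April. The sum was thus above 0 in every cell. Its median was higher in the positive class of both captures, while the highest single cell was a low cell in each. Pax5 reached a linear value of 1 in 15% of positive and 17.7% of low cells in March and 15% and 8.93% in April, and Cd74 in 15%, 16.1%, 17.5% and 14.3%. H2-Ab1 was at 0 in all April cells and H2-Aa in all April low cells. Ms4a1, Cd79a and Cd79b were not analysed here.

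At least 2 B cell genes were held by 4 of 20 positive and 13 of 62 low cells in March, and by 4 of 40 and 2 of 56 in April. Without these cells limma called 2 genes, Ctsb and P4hb. Of the CD8 and natural killer genes, Cd8b1 was held by 1 of 20 and 16 of 62 March cells and by 6 of 40 and 12 of 56 April cells. Of 15 listed myeloid genes 6 were measured, and their summed linear level had a median of 4.08 in positive cells (0.0905 to 1616) and 3.46 in low cells (0 to 1817) in March, and of 5.56 (0 to 1438) and 3.64 (0 to 2404) in April. The positive medians were the higher in both captures. The part of other cell types in the remaining differences was not tested.

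**Figure D5:**
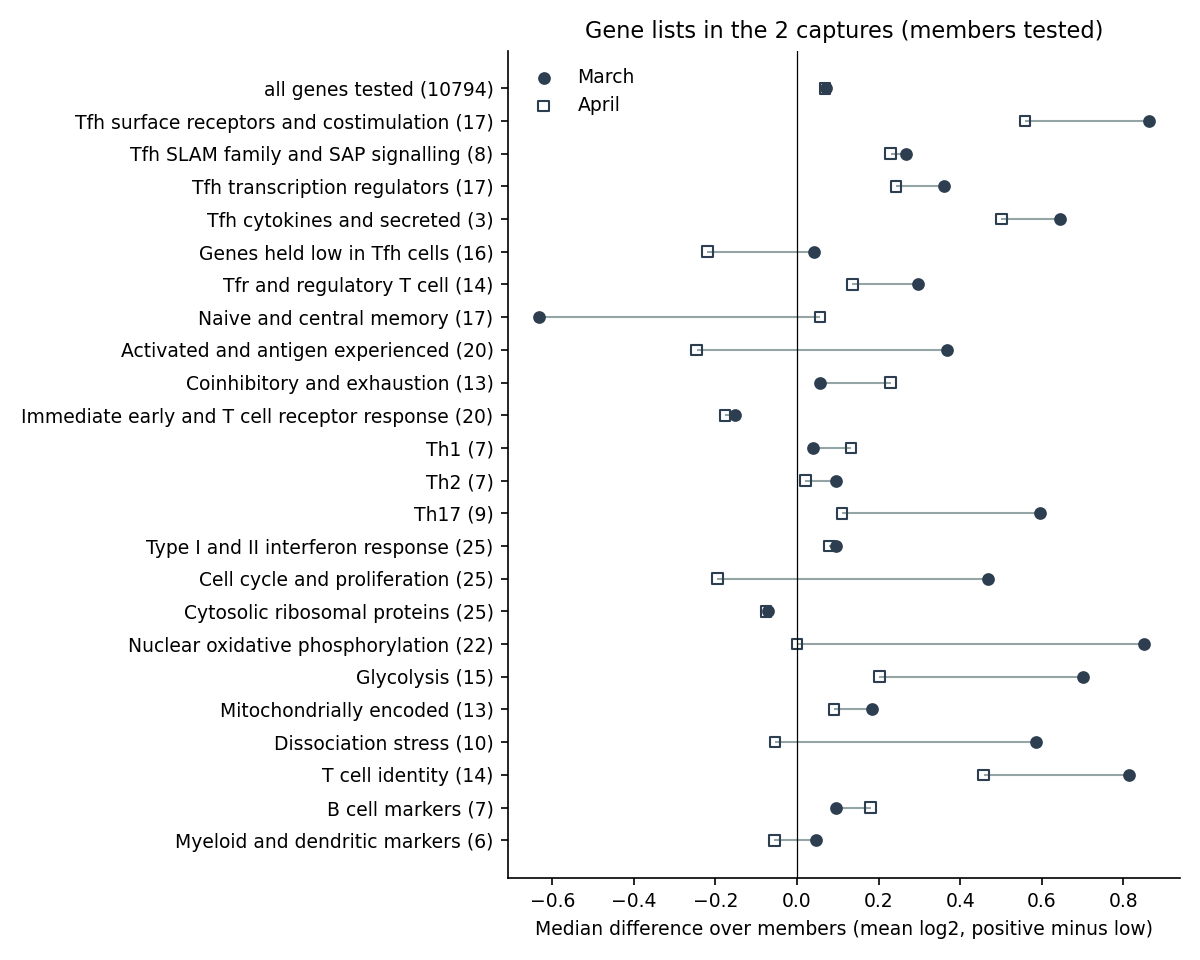
Median over the tested members (number in brackets) of the difference of mean log2 values, positive minus low (horizontal axis), for each gene list (vertical axis), circles for March and open squares for April; lists with fewer than 3 tested members are not drawn. Follicular surface genes (0.86 and 0.56) and T cell identity genes (0.81 and 0.46) lie to the right in both captures, and all genes tested at 0.07 in each.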

How the data were processed

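Single CD4 T cells of 1 group were captured in 2 months. The authors deposited 1 table of 12432 genes and 178 cells whose log2 values were normalized and logged before deposit, with 1 added first, as read from the values themselves. Undoing the log and taking off 1 gave linear values that summed to 892205 to 979887 per cell, as near-complete TPM columns would. The build is mm10, per the submitters' processing notes; no aligner or cell filter is named in these sources, and read depth is unknown. Symbols came from GENCODE vM21 (12163 of 12432 IDs). Cells were put in a capture by the month in their names. Mean log2 values per capture and class were tested with limma 3.58.1 (R 4.3.3; trend, capture as block, 1 residual degree of freedom, two-sided, threshold 0.05) for genes detected in at least 10% of cells; the prior degrees of freedom came out infinite, so each gene took the trend variance. The block comes from both classes sharing a capture. Correlated deviations could not be checked with 2 captures. Fits were tested on simulated data; 16 alternatives were run.

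Named genes were the 12 with the smallest p per direction among those called or, failing that, same-signed in both captures, the 32 set markers, and up to 4 per list of 26 gene lists; exceptions are named in the text. The Cxcr5 split, markers and lists were chosen with earlier results of these data known. Some genes are not reported here.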

Additional observations from a re-analysis of the deposited data

How the results depend on the processing

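Against 4 genes called, 0 were called in 9 alternatives: with any Cxcr5 value above 0 counted as positive, against cells with Cxcr5 at 0, with no replicate block, with the 4 runs as blocks, with linear values averaged, without the mean-variance trend, without the Mar1 cells, with genes detected per cell adjusted for, and without Foxp3-detected cells; 503 to 894 genes had an unadjusted limma p below 0.05 there. A Cxcr5 threshold of 2 gave 7 genes, and leaving out cells with 2 or more B cell genes, an alternative chosen after seeing the data, gave 2. The same 4 genes were called after quantile normalization, without a filter on low values and without the 3 mostly mitochondrial cells. A pseudocount of 10 also gave 4, with Trbc2 in place of S100a11, as did a detection filter of 25%, with Scap in place of Traj23, which was not tested there. The cause of these shifts was not tested. The block fit, in which the capture pairs the classes, called 4 genes where the fit without the block called 0.

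The 81 genes at least 1 apart in both captures became 126 at a threshold of 2, 161 against cells at 0, 1353 with linear values averaged, 7 with a pseudocount of 10 and 50 with genes detected adjusted for. Of genes with 1 sign in both captures, 63.6% were higher in positive cells; this was 45.3% after quantile normalization, 42.8% with linear averages and 50.5% with genes detected adjusted for. Linear averaging moved the median over all genes from 0.08 to -0.12.

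The share of positive cells at any value above 0 was 57.3% in March and 77.1% in April, and 28.1% in April at a threshold of 2. With any value above 0, 40.5% of positive April cells held 4 or more markers. Signs turned with that threshold for Trbj1-4 (0.15), Icos (-0.25), Tox2 (-0.089), Tcf7 (0.48), Cd40lg (-0.052), S1pr1 (0.11), Aldoa (-0.17), Cd6 (0.19), Ighm (-0.38), Cd8b1 (0.16) and Ripor2 (0.56). They turned with linear averages for Slamf6 (-0.50), Tigit (-0.99), Il21 (-0.16) and Ighm (-0.38), at a threshold of 2 for Tcf7 (0.0528), and without the Mar1 cells for Slamf6 (-0.20). Leaving out a whole capture leaves no residual degree of freedom, so it gave only the differences of the other capture. The planned removal of cells by 5 B cell genes was not run, since only Pax5 of them was measured here. The read depth is unknown, and transcripts missed in single cells limit every share of cells given.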

Other observations

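A few other genes differed alike in both captures without passing limma. Dusp2, a phosphatase induced by receptor signals, had differences of -0.62 in March and -1.15 in April, and Cd6, a receptor that restrains T cell activation, of -1.28 and -0.75. Both are in the list of immediate early and receptor response genes. Dapl1, a gene of naive-like T cells, had -0.67 and -0.64. In the other direction lay Ran, the nuclear transport GTPase (2.20 and 1.05), Tuba1b, an alpha tubulin (1.03 and 1.56), and Cox6a1, a cytochrome c oxidase subunit (1.27 and 1.04). Cd22, an inhibitory receptor of B cells, had differences of 0.70 and 0.89 toward Cxcr5-positive cells, beside 1.07 and 0.18 for Ighm.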
